A study of Mus musculus with 36 samples.

Results

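Gene expression was compared between the livers of AKR/J and C57BL/6J mice that were left undisturbed in their home cages. The comparison rests on 6 of the 36 arrays of the study, 3 of AKR/J control liver and 3 of C57BL/6J control liver, chosen by tissue, strain and condition in the array titles. All mice were males of 12 to 13 weeks, bought from the Jackson Laboratory, and were sacrificed in the light phase at ZT 6, where ZT counts hours from lights-on. Each array carried RNA pooled from 3 mice, so the spread between arrays is that between pools and not between single animals. Another 30 arrays cover DBA/2J, another inbred strain, liver of mice of each strain kept awake for 6 h from light onset and killed at the same hour, and whole brain of all these groups. They are used only where they bear on the control livers. Livers of sleep-deprived AKR/J and C57BL/6J mice and the brains of control AKR/J and C57BL/6J mice share no array with the control livers.

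Inbred strains are each fixed for 1 set of alleles, and here genotype and anything else that differs between the animals supplied cannot be told apart. The liver makes most plasma proteins, handles glucose, lipids and bile acids, and clears foreign compounds through cytochrome P450 enzymes, which oxidise them, and through transferases, which attach glucuronic acid, sulfate or glutathione. AKR/J is an albino strain known for its thymic lymphoma, and C57BL/6J is the strain of the mouse reference genome. The strains carry different haplotypes of the major histocompatibility complex (MHC), k in AKR/J and b in C57BL/6J, while DBA/2J carries d.

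Expression is given as log2 RMA values, a scale on which 1 unit is a doubling. Values on the liver arrays lay between 2.12 and 14.91, and the median of a control array was 4.06 to 4.12 in AKR/J and 4.12 to 4.13 in C57BL/6J, so a level near 4 is that of a typical dim probe set. Differences are AKR/J minus C57BL/6J on the log2 scale, values after a difference are standard errors from limma, values after a group mean are SDs, and n is 3 arrays per group throughout. A difference was called where limma's p, adjusted over all probe sets by the Benjamini-Hochberg method, was under 0.05. Where several probe sets read 1 gene, the brightest on average across the 18 liver arrays stands for it.

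The 6 arrays separated by strain. Correlations over all probe sets were 0.9939 to 0.9949 among the AKR/J arrays and 0.9945 to 0.9958 among the C57BL/6J arrays, against 0.9868 to 0.9891 between strains. Hepatocyte markers were high on all 6 arrays, with a mean level of the 8 measured markers of 13.56 to 13.70 in AKR/J and 13.68 to 13.75 in C57BL/6J, and 0 of the 8 differed by the test. AKR/J array 2 had the lowest median, 4.06, and the widest spread of values, with an SD of 2.15 against 2.09 to 2.11 on the other 5. AKR/J arrays 2 and 3 carry ZT 0 in their source name and ZT 6 in their title, and were kept as ZT 6 controls. The beta-actin 3′ minus 5′ probe set difference, a sign of RNA degradation, was 1.19, 1.27 and 1.21 in AKR/J and 1.11, 1.06 and 1.15 in C57BL/6J. The groups did not overlap, and the part of RNA quality in the strain differences was not tested. Acute-phase genes varied among pools within each strain: Saa1, which encodes serum amyloid A, stood at 13.81, 13.57 and 11.76 in AKR/J and at 13.91, 10.99 and 13.29 in C57BL/6J.

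Of 45037 probe sets, 2293 (5.09%) differed between the strains. Of these, 1362 (3.02%) were higher and 931 (2.07%) lower in AKR/J. Counted by gene, 1307 of 18193 (7.18%) differed, 866 (4.76%) higher and 441 (2.42%) lower. The median difference over all genes was 0.02. Of all 18193 genes, 9943 had a difference above 0 and 8250 below 0. Counts in the gene lists below are to be read beside these shares. The split by direction moved with scaling. Without a further normalisation 59.4% of called probe sets were higher in AKR/J, against 48.7% (1050 higher and 1105 lower) after a second quantile normalisation and 66.1% (1540 higher and 789 lower) after centring each array on its median. The total also rested on AKR/J array 2, without which 1425 probe sets were called. Without both AKR/J arrays of conflicting label, 1 AKR/J array remained and fewer probe sets were called. The label and the loss of replicates cannot be told apart there, so the count of probe sets from that run is not given. The smallest called difference was 0.263 and the median one 0.56, with a median standard error of 0.112 over all probe sets. Differences of at least 1, that is of 2-fold or more, were found for 217 genes (1.19%). At 400 probe sets (0.888%) the difference was at least 1 and the 3 AKR/J values did not overlap the 3 C57BL/6J values.

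**Figure D1:**
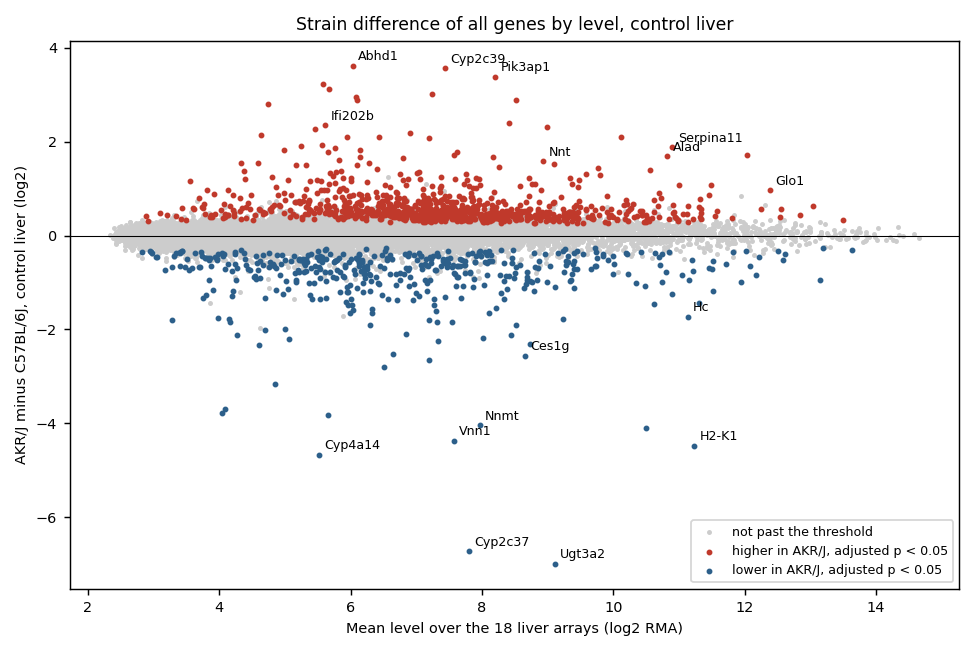
Each point is 1 of 18193 genes, with its mean level over the 18 liver arrays on the x axis and the AKR/J minus C57BL/6J difference in control liver on the y axis, both on the log2 RMA scale. Called genes are red (higher in AKR/J) or blue (lower), and the 2 lowest points, Ugt3a2 and Cyp2c37, reach -6.99 and -6.72 while the highest, Abhd1, reaches 3.62.

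Several of the largest differences fell on enzymes of drug and lipid metabolism. Ugt3a2, a glycosyltransferase of the UGT3 family, had levels of 4.24, 4.55 and 4.67 in AKR/J livers, against 11.45, 11.49 and 11.48 in C57BL/6J livers. All AKR/J arrays lay near the level of a typical dim probe set, where no detection call was used, so the difference of -6.99 ± 0.22 (adjusted p = 4.15e-14, limma) is given without a fold. Cyp2c37, an arachidonic acid hydroxylase, stood at 3.37, 3.79 and 3.19 in AKR/J, against 9.90, 10.35 and 10.27 in C57BL/6J, a difference of -6.72 ± 0.29. DBA/2J livers were at 11.17 ± 0.18 for Ugt3a2 and at 9.24 ± 0.15 for Cyp2c37. Cyp4a14, a fatty acid omega-hydroxylase, stood at 3.24, 3.45 and 3.42 in AKR/J and at 5.55, 8.86 and 9.71 in C57BL/6J. The C57BL/6J pools of Cyp4a14 spread widely (SD 2.20). Its difference of -4.67 ± 0.83 was past the threshold in the fit (adjusted p = 0.00149, limma). The difference lay between -5.91 and -3.83 over 16 alternative runs. It did not pass without the AKR/J arrays of conflicting label, where 1 AKR/J array remained.

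Nnmt, which methylates nicotinamide, averaged 6.76 ± 0.30 in AKR/J and 10.80 ± 0.50 in C57BL/6J, with DBA/2J at 6.82 ± 0.74. Vnn1, a pantetheinase that releases cysteamine and pantothenate, stood at 4.64, 4.44 and 5.30 in AKR/J and at 8.42, 9.51 and 9.56 in C57BL/6J, and its neighbour in the gene order, Vnn3, was lower by the same test at -1.65 ± 0.10. Ces1g, a carboxylesterase that hydrolyses lipid esters, averaged 6.95 ± 0.11 in AKR/J and 9.51 ± 0.18 in C57BL/6J. Akr1e1, an aldo-keto reductase, averaged 5.46 ± 0.46 in AKR/J and 8.11 ± 0.09 in C57BL/6J, and 1 of its 2 probe sets was called. For these 4 enzymes the AKR/J arrays all lay below the C57BL/6J arrays, which the rule that chose the largest falls required.

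In the other direction, Cyp2c39, which oxidises retinoic acid, stood at 9.44, 9.18 and 9.30 in AKR/J, against 5.83, 5.76 and 5.66 in C57BL/6J, a difference of 3.55 ± 0.19 (adjusted p = 1.82e-10, limma). Cyp46a1, a cholesterol 24-hydroxylase known mainly from neurons, stood at 7.79, 7.32 and 7.63 in AKR/J and at 3.99, 4.87 and 4.54 in C57BL/6J, while its brain levels did not differ by the test (-0.02, adjusted p = 0.989, limma). Prxl2b, a prostamide and prostaglandin F synthase, averaged 9.16 ± 0.05 in AKR/J and 6.77 ± 0.13 in C57BL/6J. Abhd1, a member of the alpha/beta hydrolase family, showed the largest rise of all genes, with 8.45, 8.58 and 8.63 in AKR/J and 4.98, 4.79 and 5.04 in C57BL/6J (3.62 ± 0.11). DBA/2J livers were at 4.62 ± 0.19 for Abhd1, close to the C57BL/6J level.

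Across the cytochrome P450 family 2, 7 of 33 measured genes were higher and 5 lower in AKR/J, with a median difference of 0.05 against 0.02 over all genes. Without AKR/J array 2 or array 3, 4 were higher and 5 lower. The genes higher in AKR/J besides Cyp2c39 were Cyp2g1 (0.97), Cyp2u1 (0.89), Cyp2c29 (0.63), Cyp2a12 (0.56), Cyp2c70 (0.43) and Cyp2f2 (0.34). The genes lower besides Cyp2c37 were Cyp2c55 (-1.43), the vitamin D 25-hydroxylase gene Cyp2r1 (-1.01), Cyp2c50 (-0.99) and Cyp2c54 (-0.83). The Cyp2c genes are close in sequence and share a cluster, and signal shared between them by cross-hybridising probes cannot be told apart from their own. Of 27 other cytochrome P450 genes, 1 was higher and 5 lower. The higher one was Cyp4a12a, an omega-hydroxylase of male liver, at 1.07 ± 0.18, and the lower ones included the steroid 17-hydroxylase gene Cyp17a1 at -1.57 ± 0.38, which in C57BL/6J ranged over 8.75, 6.27 and 7.22. Of 23 glucuronosyl- and sulfotransferase genes 3 were higher and 2 lower, among them Sult1c2 (1.01 ± 0.16), Sult5a1 (0.83 ± 0.13) and Sult1d1 (-0.63 ± 0.18). Of 31 esterase, aldo-keto reductase and related genes 3 were higher and 4 lower, with Aox3, an aldehyde oxidase, at 0.77 ± 0.16 and Aldh3a2, a fatty aldehyde dehydrogenase, at -0.96 ± 0.14. In that list 1 gene was higher and 3 were lower without AKR/J array 3 or C57BL/6J array 1 or 3.

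Other large differences fell on genes with roles outside metabolism. Pik3ap1, an adaptor that links receptors to PI3 kinase, stood at 9.12, 9.30 and 9.10 in AKR/J and at 5.65, 5.76 and 5.96 in C57BL/6J, though its second probe set did not differ (0.28, adjusted p = 0.609, limma). Snrnp25, a protein of the minor spliceosome, stood at 8.43, 8.36 and 8.17 in AKR/J and at 5.42, 5.30 and 5.19 in C57BL/6J. Its neighbours Rhbdf1, an inactive rhomboid protein that guides the sheddase ADAM17, and Mpg, a DNA glycosylase, were higher in AKR/J too, at 2.18 ± 0.10 and 1.21 ± 0.13. Hddc3 (2.94 ± 0.12), Fmn2, an actin nucleator (2.89 ± 0.19), Ctse, the protease cathepsin E (2.89 ± 0.44), Slc39a2, a zinc importer (2.81 ± 0.12), Abca3, a lipid transporter (2.32 ± 0.10), and Dnaic1, an axonemal dynein chain (2.26 ± 0.34), completed the rises apart from Cplane1 and Ifi202b. Cplane1, a gene of cilium formation, was higher by 3.23 ± 0.18 at the representative probe set and by 1.46 at another, and the other 5 of its 7 probe sets were not called.

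Among the falls, Rpgrip1, known as a photoreceptor cilium protein, stood at 3.82, 4.20 and 4.25 in AKR/J and at 8.02, 7.81 and 7.92 in C57BL/6J, at 1 of its 4 probe sets. The other 3 Rpgrip1 probe sets had differences between -0.04 and 0.00. Slc1a2, a glutamate transporter, was lower by -2.53 ± 0.15 and its neighbour Cd44, a hyaluronan receptor, was also called lower. Gm7969 (-3.78 ± 0.10), the zinc finger gene Zfp874a (-3.16 ± 0.14) and C730036E19Rik (-2.80 ± 0.22) were also lower. Of the 30 genes with the largest differences, 27 had a place in the RefSeq gene order, and 114 other measured genes lay within 3 places of them. Of those 114 neighbours 28 were called, or 24.6%, against 7.18% of all genes. Members of the Cyp2c, Cyp4a and Vnn clusters, whose copies resemble each other, are among those called. The neighbours Ifi203, Ifi204 and Ifi207 of the Ifi200 cluster were not called.

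**Figure D2:**
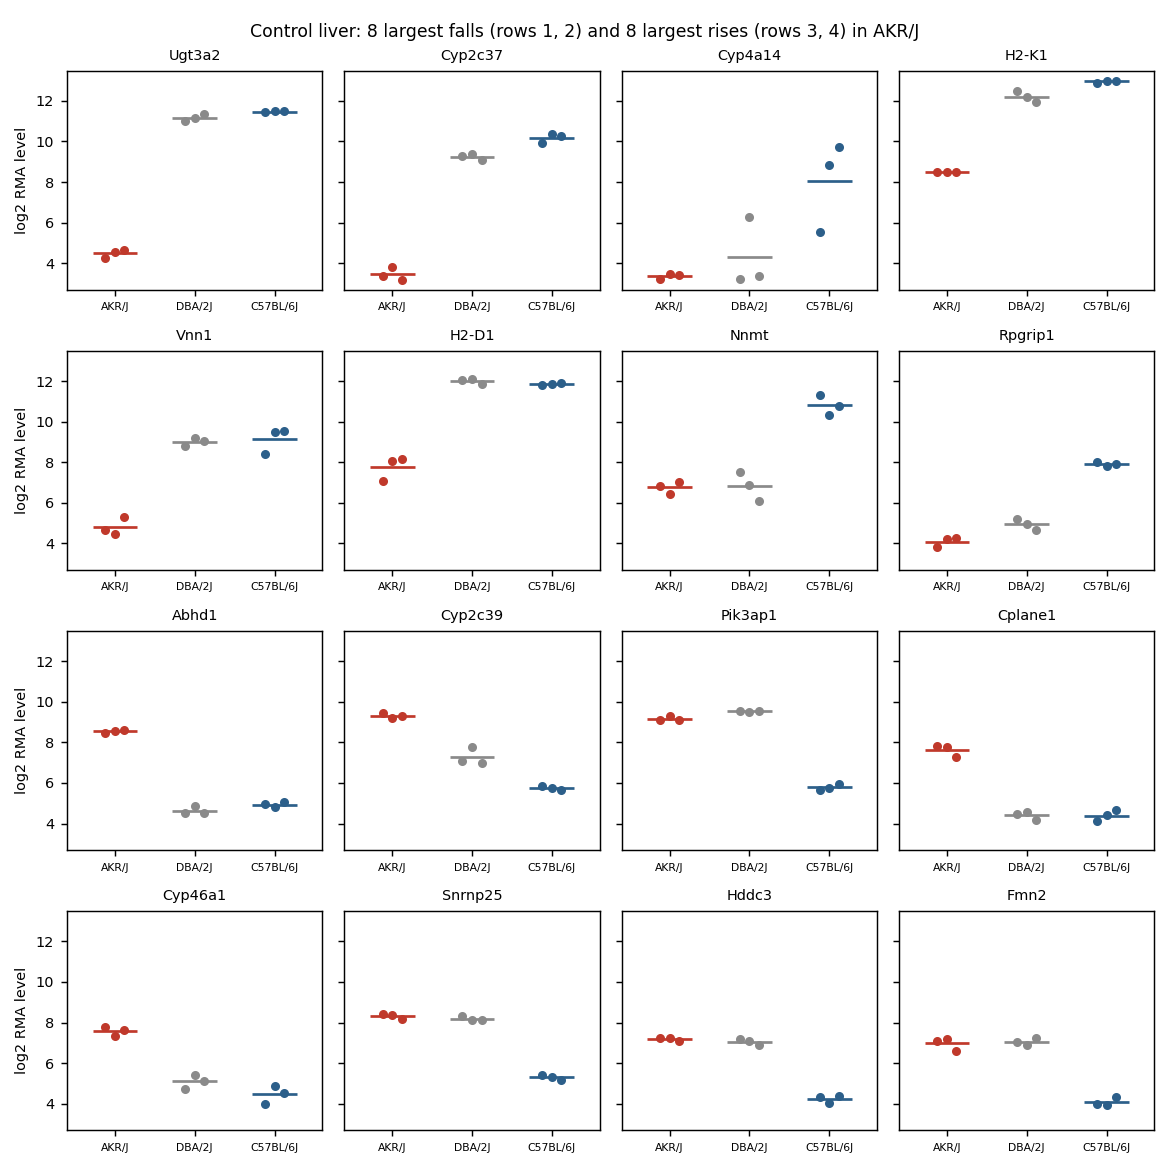
Levels on the log2 RMA scale of the 8 genes with the largest falls and the 8 with the largest rises in AKR/J, for the 3 AKR/J, 3 DBA/2J and 3 C57BL/6J control liver arrays. Points are arrays and lines are group means; AKR/J and C57BL/6J points do not overlap in any panel, the rule by which these genes were chosen, and DBA/2J lies near AKR/J for Nnmt (6.82) and near C57BL/6J for Ugt3a2 (11.17).

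Several genes with known structural or coding variants between inbred strains were set beside the strain labels. They are a selection: 18 of the 27 measured genes on that list did not pass, among them H2-Ea. Nnt, the mitochondrial nicotinamide nucleotide transhydrogenase, is partly deleted in C57BL/6J. It stood at 9.41, 9.46 and 9.49 in AKR/J livers, against 7.61, 7.91 and 8.10 in C57BL/6J livers (1.58 ± 0.11, adjusted p = 1.48e-08, limma). The AKR/J arrays were all higher, as were the DBA/2J livers at 9.29 ± 0.22. Hc, which encodes complement component C5 and carries a frameshift in AKR/J and DBA/2J, stood at 10.68, 10.63 and 10.43 in AKR/J, against 12.11, 12.36 and 12.47 in C57BL/6J. DBA/2J was at 10.48 ± 0.08, so both strains with the frameshift were below C57BL/6J. Glo1, the methylglyoxal-clearing glyoxalase whose gene is duplicated in several inbred strains, stood at 12.59, 12.62 and 12.72 in AKR/J, against 11.63, 11.70 and 11.69 in C57BL/6J, and 3 of its 4 probe sets were called higher.

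Alad, the second enzyme of heme synthesis, stood at 11.57, 11.62 and 11.43 in AKR/J and at 9.82, 9.81 and 9.94 in C57BL/6J (1.68 ± 0.09). Hdhd3, a phosphatase-like gene added after its values were seen, was higher by 1.72 ± 0.14. Wdfy1, an endosomal adaptor, averaged 8.05 ± 0.15 in AKR/J and 5.97 ± 0.26 in C57BL/6J. In control brain, Nnt (0.97), Glo1 (1.19), Alad (1.70), Hdhd3 (0.82) and Wdfy1 (2.21) were also called higher in AKR/J. Hc was not (-0.18, adjusted p = 0.552, limma), and its brain levels were dim in both strains, between 3.52 and 3.89. Of 27 measured genes on the list of known variants, 5 were higher and 4 lower, with a median of -0.08; the lower ones besides Hc were Trim12a (-1.80 ± 0.15), Stk25 (-1.47) and Gbp2b (-0.96 ± 0.24).

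**Figure D3:**
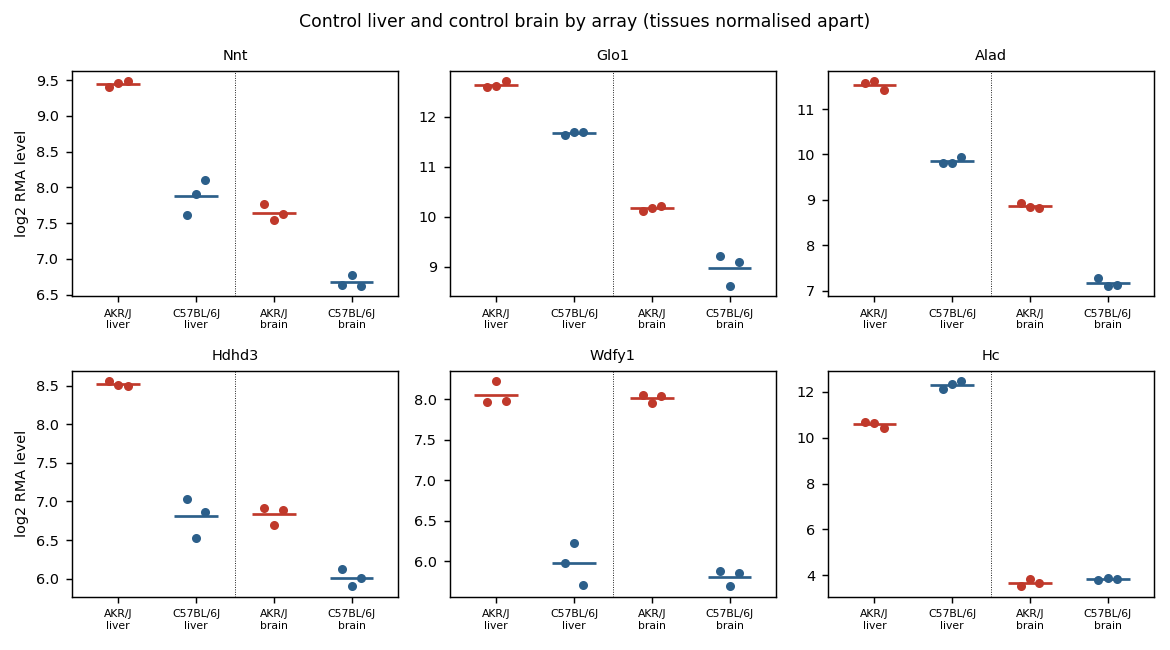
Log2 RMA levels of Nnt, Glo1, Alad, Hdhd3, Wdfy1 and Hc on each AKR/J and C57BL/6J control array, liver left and brain right of the dotted line in each panel. Points are arrays and lines group means. Levels are compared within a tissue only, since the tissues were treated as normalised apart. AKR/J lies above C57BL/6J in both tissues for all genes but Hc, which is lower in AKR/J liver (10.58 against 12.31).

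MHC class I molecules present peptides to cytotoxic T cells, and class II molecules present them to helper T cells. H2-K1, a classical class I heavy chain, stood at 8.49, 8.48 and 8.49 in AKR/J livers, against 12.89, 13.00 and 12.98 in C57BL/6J livers, and all 4 of its probe sets were called lower, by -1.02 to -4.47. H2-D1, another classical class I heavy chain, split by probe set. Of its 9 probe sets 4 were lower in AKR/J, 2 higher and 3 not called, with differences from -6.02 to 4.41. At the lowest of them, the levels were 6.31, 5.64 and 5.45 in AKR/J and 11.80, 11.83 and 11.85 in C57BL/6J. At the highest, they were 11.12, 11.19 and 10.99 in AKR/J and 6.50, 6.67 and 6.89 in C57BL/6J. A further H2-D1 probe set averaged 4.16 in AKR/J and 4.06 in C57BL/6J, while DBA/2J averaged 11.67. The probe sequences were not analysed here, and for these polymorphic genes the amount of RNA and the match of the probes to an allele cannot be told apart.

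Of 15 measured genes of class I presentation 1 was higher and 4 lower, with a median of -0.07. Besides H2-K1 and H2-D1 these were Nlrc5, the class I transactivator (-1.20 ± 0.17), and Tap1, a peptide transporter (-0.82 ± 0.17), both lower, and H2-Bl (0.50), higher. B2m, the light chain shared by class I molecules, did not pass (-0.11, adjusted p = 0.559). Of 11 class II genes 5 were lower and 0 higher, and all 11 differences were below 0 (median -0.21). Over all genes 8250 of 18193 differences were below 0. H2-Ab1 stood at 5.76, 5.23 and 5.66 in AKR/J and at 7.76, 7.54 and 7.61 in C57BL/6J, H2-Aa was lower by -1.84 ± 0.14 and H2-Eb1 by -1.60 ± 0.14. Cd74, the invariant chain, which the haplotype does not encode, averaged 7.48 ± 0.06 in AKR/J and 8.70 ± 0.12 in C57BL/6J. H2-DMa, a peptide-loading chain, was lower by -0.78 ± 0.18. Ciita, the class II transactivator, was at -0.21 and did not pass (adjusted p = 0.313), nor did H2-Ea (-0.15, adjusted p = 0.666).

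Markers of Kupffer cells, the resident macrophages of the liver, had lower levels in AKR/J, 5 of 12 by the test. The mean level of the 12 markers was 6.82 to 7.44 over the AKR/J arrays, against 7.58 to 7.97 over the C57BL/6J arrays. The groups thus did not overlap, which also held for lists of other kinds. Of the 12, 5 were called lower, 0 higher, and all 12 differences were below 0, with a median of -0.64 against 0.02 over all genes. The 5 were C1qb (-1.11 ± 0.21), the macrophage antigen gene Adgre1 (-0.95 ± 0.24), C1qa (-0.91 ± 0.19), the lysozyme gene Lyz2 (-0.81 ± 0.21) and the receptor gene Csf1r (-0.65 ± 0.16). The markers that define Kupffer cells most closely did not pass: Clec4f stood at 8.81, 8.54 and 8.28 in AKR/J and at 9.31, 8.96 and 9.12 in C57BL/6J (-0.59, adjusted p = 0.0887, limma), and Vsig4, Cd5l and Timd4 were at -0.59, -0.63 and -0.67. Clec4f passed under 2 of 16 alternative runs, and Vsig4, Cd5l and Timd4 under 0. No marker was at the floor of the values. Within AKR/J, array 1 had the highest marker level. Leaving out arrays 2 and 3, which carry the conflicting label, left 1 AKR/J array and a median of -0.36. Without AKR/J array 2, AKR/J array 3 or C57BL/6J array 3, 2 of the 12 markers were called, and without C57BL/6J array 1, 3. In RNA of whole tissue, fewer cells of a type and less RNA per cell cannot be told apart.

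The class II, complement and interferon results share arrays with this difference, and the part of the macrophage markers in them was not tested. Of 25 complement genes 5 were lower and 1 higher: besides Hc, C1qa and C1qb these were C1qc (-0.86 ± 0.21) and C6, a component of the membrane attack complex (-1.01 ± 0.13), and the complement inhibitor gene Cd59a was higher (0.34). Of 29 interferon-stimulated genes 5 were lower and 0 higher, with a median of -0.42. Of the 29, 26 differences were below 0, against 8250 of 18193 over all genes. The mean level of the list was 6.35 to 6.45 over the AKR/J arrays, against 6.84 to 6.93 over the C57BL/6J arrays and 7.41 to 8.06 over the DBA/2J arrays. Oasl1, an inhibitor of Irf7 translation, stood at 4.60, 4.94 and 4.91 in AKR/J and at 6.69, 6.79 and 6.71 in C57BL/6J. Usp18, which removes ISG15 from proteins, was lower by -1.31 ± 0.24, Gbp6 by -1.08 ± 0.31 and the antiviral gene Rsad2 by -0.73. The count moved in both directions with the fit. It was 2 to 4 when 1 array was left out (2 without AKR/J array 1 or 2, 3 without AKR/J array 3 or C57BL/6J array 2 or 3), 8 with array weights and 17 when the 6 arrays of the comparison were fitted alone.

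The Ifi200 family, interferon-inducible genes in 1 cluster, split by gene. Ifi202b stood at 5.81, 5.69 and 5.46 in AKR/J and at 3.57, 3.26 and 3.09 in C57BL/6J, while DBA/2J was higher than both at 8.14 ± 0.51. Mndal stood at 2.82, 2.86 and 2.79 in AKR/J, at the low end of all values, against 6.36, 6.57 and 6.63 in C57BL/6J, with DBA/2J at 2.89 ± 0.11. Ifi209 (-1.19 ± 0.16) and Ifi213 (-0.73 ± 0.13) were lower, and the other 4 of 8 measured members were not called. These genes resemble each other in sequence, so their probe sets may share signal.

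Few markers of the remaining cell types were called, although the levels of some lists did not overlap. Of the marker lists, B cell, T and NK cell, neutrophil, cholangiocyte, red blood cell and adipocyte lists had 0 members called in either direction. The neutrophil genes S100a9 and S100a8 were at -1.36 and -1.20 and did not pass. The mean level of the 9 neutrophil markers was 4.29 to 4.36 over the AKR/J arrays, against 4.37 to 5.05 over the C57BL/6J arrays, and all 9 differences were below 0. T and NK cell markers lay at 4.19 to 4.26 in AKR/J, against 4.33 to 4.35 in C57BL/6J, and proliferating cell markers at 3.74 to 3.92 in AKR/J, against 4.07 to 4.09 in C57BL/6J. These levels are those of dim probe sets, and their part in the immune gene results was not tested. Lack of overlap was not particular to cell type lists. The oxidative phosphorylation list lay at 10.95 to 10.96 in AKR/J, against 10.79 to 10.86 in C57BL/6J. The coagulation list lay at 10.96 to 11.02 in AKR/J, against 10.89 to 10.91 in C57BL/6J. Single members were called for sinusoidal endothelium (Lyve1, -0.78 ± 0.20), stellate cells (Lrat, which esterifies retinol, -0.88 ± 0.21), proliferating cells (the nucleotide reductase gene Rrm2, -1.16 ± 0.16) and exocrine pancreas (Cela1, an elastase, 1.31 ± 0.14). Another Rrm2 probe set did not differ in control liver (-0.04, adjusted p = 0.931, limma). Cela1 averaged 9.87 ± 0.14 in AKR/J and 8.56 ± 0.32 in C57BL/6J, and the other 8 measured pancreas markers were not called.

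**Figure D4:**
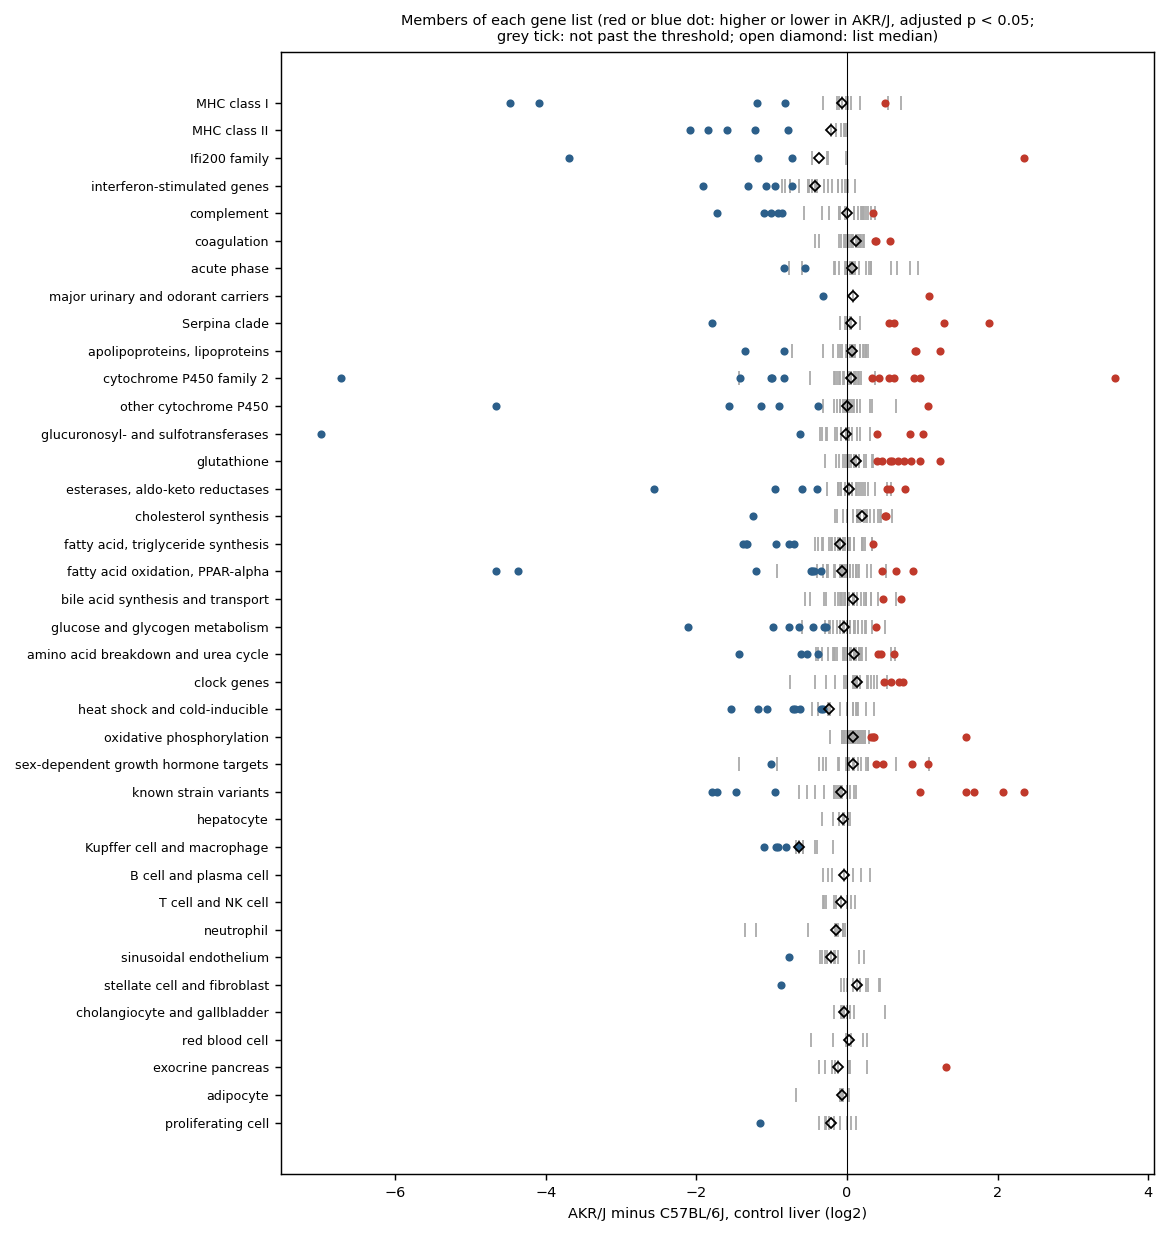
AKR/J minus C57BL/6J differences (log2) of the measured members of 26 pathway and 12 marker lists in control liver, 1 row per list. Red and blue dots are members called higher and lower in AKR/J, grey ticks members not called and open diamonds list medians; the median of the Kupffer cell row lies at -0.64 and that of the interferon row at -0.42, while most rows centre near 0.

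Of 36 genes of fatty acid and triglyceride synthesis 6 were lower and 1 higher in AKR/J and 29 did not pass, with a median of -0.10. Cd36, a fatty acid translocase also present on macrophages, stood at 6.09, 5.37 and 6.53 in AKR/J and at 7.44, 7.15 and 7.53 in C57BL/6J. Pparg, a nuclear receptor of lipid storage, stood at 4.65, 4.68 and 4.99 in AKR/J and at 6.21, 6.00 and 6.12 in C57BL/6J. Fitm1, a lipid droplet protein, was lower by -1.32 ± 0.14. The desaturase gene Scd1 (-0.94 ± 0.20), the elongase gene Elovl6 (-0.77) and the phosphatidate phosphatase gene Lpin1 (-0.70) were lower, and Dgat1, which completes triglycerides, was higher (0.35). Fasn, the fatty acid synthase, was at -0.43 and Srebf1, the regulator of the pathway, at 0.21, and neither passed (adjusted p = 0.308 and 0.664). Without AKR/J array 2, 4 of the list were called lower and 0 higher.

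Of 35 measured genes of fatty acid oxidation and targets of PPAR-alpha, the receptor that drives it, 7 were lower and 3 higher (median -0.07). Besides Cyp4a14 and Vnn1, Acot1, a thioesterase, stood at 4.54, 4.74 and 4.74 in AKR/J and at 5.28, 6.26 and 6.09 in C57BL/6J. The other lower genes were the peroxisomal enzymes Ehhadh (-0.47 ± 0.13) and Acaa1b (-0.46 ± 0.12), the isomerase gene Eci1 (-0.44 ± 0.08) and the acylcarnitine carrier gene Slc25a20 (-0.35 ± 0.09). Fgf21, a hormone induced by PPAR-alpha, was higher by 0.87 ± 0.22, Acot12 by 0.65 and Bdh1, a ketone body enzyme, by 0.46. Acot12 had probe sets called in both directions, with differences from -2.0 to 0.65. The receptor gene Ppara was at 0.52 and did not pass (adjusted p = 0.128, limma), though it passed under 2 of 16 alternative runs. For Acot1 and Cyp4a14 alike, C57BL/6J array 1 was the lowest of its group. Without AKR/J array 1 or 2 or C57BL/6J array 2 or 3, 4 of the list were called lower, and without C57BL/6J array 1, 8 were lower and 1 higher.

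Of 25 genes of lipoprotein handling 3 were higher and 2 lower, and without AKR/J array 2 or C57BL/6J array 1 or 3, 2 were higher and 1 lower. Pltp, which transfers phospholipids between lipoproteins, averaged 7.59 ± 0.10 in AKR/J and 8.95 ± 0.23 in C57BL/6J. Apobec1, which edits the apolipoprotein B transcript, averaged 7.15 ± 0.21 in AKR/J and 6.23 ± 0.04 in C57BL/6J. Apoa4 was higher by 0.91 ± 0.19, and Lpl by 1.23 ± 0.33 with AKR/J values of 7.80, 8.71 and 8.99. Lipg, an endothelial lipase, was lower at the representative probe set (-0.84) and had another probe set called higher (0.81). Of 22 cholesterol synthesis genes 2 were higher, Nsdhl (0.51 ± 0.12) and Scap (0.50 ± 0.12), and 1 was lower. That one, the sterol desaturase gene Sc5d, stood at 10.56, 10.59 and 10.58 in AKR/J and at 11.83, 11.75 and 11.89 in C57BL/6J, and was also lower in AKR/J brain (-2.55, adjusted p = 1.17e-07, limma). The higher calls numbered 0 without AKR/J array 2, 0 without C57BL/6J array 3, and 1 without AKR/J array 3 or C57BL/6J array 1. In bile acid metabolism 2 of 32 genes were higher, the FGF19-family receptor gene Fgfr4 (0.72 ± 0.13) and the transporter gene Slco1a1 (0.47 ± 0.12). Over all genes 4.76% were higher. Cyp7a1, the rate-limiting enzyme of bile acid synthesis, did not pass (0.02, adjusted p = 0.986).

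Of 31 genes of glucose and glycogen metabolism 7 were lower and 1 higher in AKR/J, and 23 did not pass (median -0.04). G6pc, the glucose-6-phosphatase that releases glucose, was lower by -0.99 ± 0.22 (adjusted p = 0.00873, limma). Pck1, which commits oxaloacetate to gluconeogenesis, averaged 11.51 ± 0.19 in AKR/J and 12.15 ± 0.22 in C57BL/6J, and Fbp1, the fructose bisphosphatase, 13.01 ± 0.10 in AKR/J and 13.28 ± 0.04 in C57BL/6J. Igfbp1, an insulin-repressed IGF carrier, stood at 6.06, 6.85 and 7.18 in AKR/J and at 8.03, 9.68 and 8.72 in C57BL/6J. Got1 (-0.77 ± 0.21), Pck2 (-0.45 ± 0.11) and the glycogen branching gene Gbe1 (-0.31) were the other lower genes, and Igf1 was higher (0.38). The count rests on single arrays. The genes called lower numbered 4, 3 and 6 without AKR/J array 1, 2 and 3, and 3, 2 and 2 without C57BL/6J array 1, 2 and 3. Of 42 genes of amino acid breakdown and the urea cycle 3 were higher and 4 lower. Oat, ornithine aminotransferase, stood at 10.43, 10.69 and 11.23 in AKR/J and at 12.22, 12.25 and 12.21 in C57BL/6J, and Gldc of the glycine cleavage system was higher by 0.63 ± 0.10. In this list 2 genes were called lower without AKR/J array 2 or C57BL/6J array 1, 2 or 3.

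Glutathione genes were called in 1 direction. Of 31 measured genes of glutathione synthesis and transfer 9 were higher in AKR/J and 0 lower (median 0.11). Gsta4, a transferase that clears lipid aldehydes, stood at 9.88, 9.92 and 10.06 in AKR/J and at 8.78, 8.90 and 8.50 in C57BL/6J (1.23 ± 0.10). Both subunits of the rate-limiting ligase were higher, with the catalytic Gclc at 10.98, 11.07 and 11.21 in AKR/J and at 9.98, 10.59 and 10.41 in C57BL/6J, and the modifier Gclm at 10.92, 10.91 and 10.85 in AKR/J and at 10.02, 10.29 and 10.35 in C57BL/6J. The groups did not overlap for either subunit. Glutathione synthetase (Gss, 0.47 ± 0.09), glutathione reductase (Gsr, 0.57 ± 0.12) and the mu-class transferases Gstm3 (0.85 ± 0.19), Gstm5 (0.59) and Gstm4 (0.40) were higher, as was Glo1. The mu-class genes resemble each other, so their signals may be shared. After a second quantile normalisation 8 of the list were called higher and after median centring 10, with 0 lower in each. When 1 array was left out 7 to 9 were higher and 0 lower.

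Lists of secreted and mitochondrial proteins held, between them, calls in both directions. Of 11 genes of the Serpina clade of protease inhibitors 4 were higher and 1 lower, with 2 higher without AKR/J array 2 or C57BL/6J array 2. Serpina11 stood at 11.57, 11.55 and 11.47 in AKR/J and at 9.71, 9.51 and 9.71 in C57BL/6J, Serpina6, the corticosteroid-binding globulin, was higher by 0.63 ± 0.15, and Serpina7, the thyroxine-binding globulin, was lower by -1.79 ± 0.23. The clade holds close copies. Of 25 coagulation genes 3 were higher, F11 (0.57 ± 0.11), F7 (0.38 ± 0.08) and Klkb1, plasma prekallikrein (0.37 ± 0.10). Klkb1 did not pass without AKR/J array 2 or 3 or C57BL/6J array 1 or 3. Of 24 acute-phase genes 2 were lower, Hamp2 (-0.84 ± 0.21) and Crp (-0.55 ± 0.10), while Saa1 and the lipocalin gene Lcn2 were not called. Hamp2 did not pass without AKR/J array 1 or 2 or C57BL/6J array 2 or 3. Lcn2 stood at 10.80, 10.76 and 6.39 in AKR/J and at 11.95, 6.66 and 9.84 in C57BL/6J, so the pools overlapped widely. Of 25 genes regulated by the male pattern of growth hormone 4 were higher and 1 lower, with Hsd3b5, a steroid dehydrogenase of male liver, at 0.86 ± 0.21; leaving out any 1 of the 6 arrays left 1 or 2 higher. Of 52 genes of oxidative phosphorylation 4 were higher, led by Nnt, where 4.76% of all genes were higher. Of the 52, 44 differences were above 0, against 9943 of 18193 over all genes, with a list median of 0.08. When 1 array was left out 1 to 3 were higher, and 1 without C57BL/6J array 3. Of 3 urinary and odorant carrier genes, Mup10 was higher (1.08 ± 0.18) and Mup3 lower (-0.31 ± 0.08), in a family of near-identical copies.

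Some chaperone genes were lower in AKR/J control livers. Chaperones of the cytosol, such as the HSP90 and HSC70 proteins, and of the endoplasmic reticulum (ER), such as the Hspa5 product BiP, fold new and damaged proteins, and their genes rise when unfolded proteins build up. Of 22 measured genes of heat shock and cold response 8 were lower and 0 higher and 14 did not pass, with a median of -0.24 and 8 differences above 0. In the cytosol these were Hsp90aa1, at 9.29, 9.67 and 9.60 in AKR/J against 10.56, 10.55 and 10.64 in C57BL/6J, and lower at 3 of 5 probe sets. Hspa8, the constitutive HSC70 gene, stood at 10.79, 10.63 and 10.75 in AKR/J and at 11.46, 11.37 and 11.51 in C57BL/6J. Hspb1, a small heat shock protein, stood at 6.96, 7.32 and 6.82 in AKR/J and at 8.53, 8.62 and 8.59 in C57BL/6J (-1.54 ± 0.21). No AKR/J array reached the C57BL/6J range for these 3 genes. The strongly inducible Hspa1a and Hspa1b were at 0.01 and -0.39 and did not pass (adjusted p = 0.990 and 0.762), and Cirbp, a cold-inducible RNA-binding protein, was at 0.36 (adjusted p = 0.208).

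In the ER, Creld2, a disulfide isomerase-like protein, stood at 7.62, 7.68 and 7.67 in AKR/J and at 8.97, 8.79 and 8.76 in C57BL/6J (-1.19 ± 0.13, adjusted p = 6.16e-06, limma). Hsp90b1, the ER form of HSP90, was lower by -0.70 ± 0.12, Sdf2l1 by -0.62 ± 0.15, Hspa5 by -0.34 and the lectin chaperone gene Calr by -0.32 ± 0.09. The last pair lay close to the threshold, with adjusted p of 0.0471 and 0.0410. Manf, a secreted ER stress protein, was at -0.47 ± 0.14 and did not pass (adjusted p = 0.0531, limma), though it passed under 6 of 16 alternative runs. Pdia4, Pdia6, Dnajb11 and Canx were at 0.08, 0.26, -0.23 and 0.14 and did not pass. Of the list, 5 to 7 were called lower when 1 array was left out, 5 of them without AKR/J array 3, and 5 when the 9 control arrays were fitted alone. Neither scaling alternative turned the direction: 9 were lower after a second quantile normalisation and 6 after median centring, with 0 higher.

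Several ER chaperone promoters are known to carry the ER stress response element, bound by ATF6 with the factor NF-Y. The RefSeq promoter windows of GRCm38.p6 were searched on both strands for its letters, CCAAT and CCACG with 9 bases of any kind between them. Each window runs from 250 bases before to 50 bases after the annotated gene start. A match was present in 39 of 32851 windows of that length, or 0.119%. Of the 5 ER chaperone genes called lower 4 had a match (Creld2, Hspa5, Hsp90b1 and Calr) and Sdf2l1 had none. Of the 4 that did not pass, Pdia6 and Canx had a match and Pdia4 and Dnajb11 had none. The 4 windows below are shown because they hold the match beside a called difference; capitals mark the matched letters, read 5′ to 3′ along the gene's strand, and a match to the opposite strand appears as its reverse complement.
Creld2, chr15:88819396-88819695, plus strand: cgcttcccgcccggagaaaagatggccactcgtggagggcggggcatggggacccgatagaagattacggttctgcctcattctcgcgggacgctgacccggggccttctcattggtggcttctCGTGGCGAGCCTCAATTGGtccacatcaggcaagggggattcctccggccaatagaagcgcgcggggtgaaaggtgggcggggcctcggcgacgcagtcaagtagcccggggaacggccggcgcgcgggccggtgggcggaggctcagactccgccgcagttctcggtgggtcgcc
Hspa5, chr2:34771840-34772139, plus strand: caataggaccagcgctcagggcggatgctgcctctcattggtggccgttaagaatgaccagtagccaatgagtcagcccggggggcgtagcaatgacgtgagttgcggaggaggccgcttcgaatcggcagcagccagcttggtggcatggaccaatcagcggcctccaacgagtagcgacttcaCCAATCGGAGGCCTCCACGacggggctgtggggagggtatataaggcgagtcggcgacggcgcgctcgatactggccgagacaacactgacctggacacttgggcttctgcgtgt
Hsp90b1, chr10:86705395-86705694, minus strand: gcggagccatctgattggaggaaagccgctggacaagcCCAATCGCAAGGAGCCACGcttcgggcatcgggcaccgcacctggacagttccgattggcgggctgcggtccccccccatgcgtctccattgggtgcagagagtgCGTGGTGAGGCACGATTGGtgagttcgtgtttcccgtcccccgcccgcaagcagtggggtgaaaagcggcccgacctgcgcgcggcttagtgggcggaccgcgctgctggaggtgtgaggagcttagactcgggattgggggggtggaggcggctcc
Calr, chr8:84846882-84847181, minus strand: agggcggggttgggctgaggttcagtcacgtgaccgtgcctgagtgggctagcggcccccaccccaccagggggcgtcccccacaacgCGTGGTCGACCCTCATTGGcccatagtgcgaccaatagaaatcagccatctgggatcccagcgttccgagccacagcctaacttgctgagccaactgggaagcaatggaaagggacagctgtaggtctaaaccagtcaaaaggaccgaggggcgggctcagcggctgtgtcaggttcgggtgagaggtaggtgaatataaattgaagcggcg
The first matched base lay at position -126 in Creld2, -65 in Hspa5, -212 and -107 in Hsp90b1 and -162 in Calr, counted from the gene start. A match is a string of letters in the reference genome and says nothing of binding, nor of the AKR/J sequence.

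For Creld2 and Hsp90aa1 the strain difference had the opposite sign in sleep-deprived livers. After 6 h awake, Creld2 stood at 10.12, 9.76 and 10.09 in AKR/J, against 9.52, 9.19 and 9.56 in C57BL/6J. AKR/J was thus the higher strain there (0.56, adjusted p = 0.0106, limma), and the difference between conditions, tested as the strain difference in sleep-deprived livers minus that in control livers, was 1.75 ± 0.18 (adjusted p = 0.000337, limma). Hsp90aa1 stood at 11.05, 11.30 and 11.28 in sleep-deprived AKR/J and at 10.89, 10.93 and 10.78 in sleep-deprived C57BL/6J, and its interaction was 1.41 ± 0.14 (adjusted p = 0.000337, limma). Both held under all 18 alternative settings. Manf (1.16 ± 0.19, adjusted p = 0.0463) and Stip1, a cochaperone of HSP90 and HSP70 (0.96 ± 0.15, adjusted p = 0.0298), also passed, but not under 13 and 11 of the 18 settings. Hspb1 and Hspa8 had interactions of 1.38 ± 0.30 and 0.58 ± 0.11 that did not pass (adjusted p = 0.198 and 0.154). Of the 22 chaperone and cold-response genes, 8 were higher and 0 lower in AKR/J after sleep deprivation, where 5.11% of all genes were higher and 3.68% lower.

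Over all 45037 probe sets the interaction was called at 10 (0.0222%), 7 higher (0.0155%) and 3 lower (0.00666%). They were Creld2, Manf, Stip1, 3 probe sets of Hsp90aa1, 2 of Gm7969 and 1 each of Clec2h and Rrm2. Clec2h, a lectin-like gene, stood at 2.53, 2.81 and 2.70 in AKR/J control livers, against 6.50, 7.06 and 5.61 in C57BL/6J control livers, and at 2.91, 2.81 and 2.68 in sleep-deprived AKR/J, against 3.55, 4.04 and 3.31 in sleep-deprived C57BL/6J. All AKR/J values lay between 2.53 and 2.91, and the sleep-deprived C57BL/6J values did not overlap the control C57BL/6J values. The Rrm2 probe set called stood at 4.33, 4.39 and 4.49 in AKR/J control livers and at 4.45, 4.47 and 4.42 in C57BL/6J control livers, with sleep-deprived values of 4.17, 4.44 and 4.33 in AKR/J and 5.46, 5.45 and 6.02 in C57BL/6J.

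**Figure D5:**
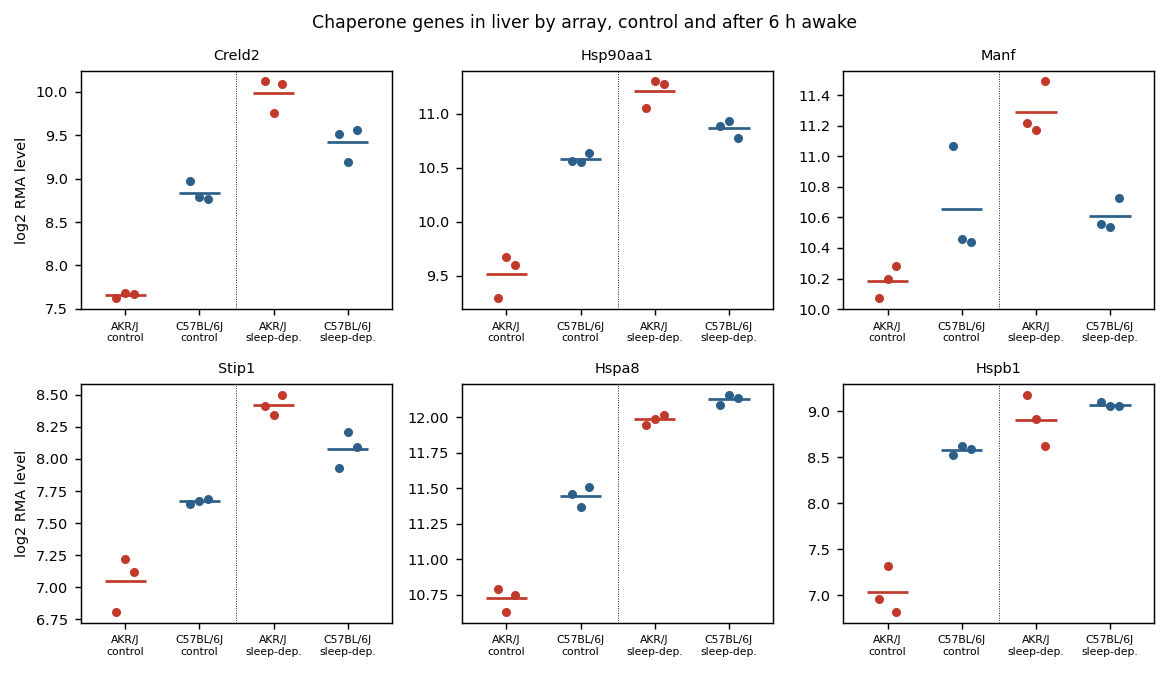
Log2 RMA levels of 6 chaperone genes on each liver array of AKR/J and C57BL/6J, control groups left and sleep-deprived groups right of the dotted line. Points are arrays and lines are group means; Creld2 is lower in AKR/J among controls (7.62 to 7.68 against 8.76 to 8.97) and higher in AKR/J after sleep deprivation (9.76 to 10.12 against 9.19 to 9.56).

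Clock genes bear on the conflicting ZT labels, since their levels change steeply with the hour. Dbp, a clock output factor, stood at 10.23, 10.22 and 10.12 in AKR/J and at 9.80, 9.74 and 9.95 in C57BL/6J. Arntl, whose transcript runs opposite to Dbp, stood at 4.88, 5.22 and 5.23 in AKR/J and at 4.57, 5.13 and 4.66 in C57BL/6J. Per2 stood at 5.45, 5.45 and 5.36 in AKR/J and at 5.73, 5.37 and 5.63 in C57BL/6J. AKR/J arrays 2 and 3, labelled ZT 0 in 1 field, thus lay within 0.11 of array 1 for Dbp and 0.09 for Per2, and within 0.35 for Arntl. Nr1d1 (0.53, adjusted p = 0.0559), Dbp (0.36, adjusted p = 0.380), Arntl (0.32, adjusted p = 0.470), Per2 (-0.16, adjusted p = 0.768) and Per1 (-0.04, adjusted p = 0.946) did not pass by limma. Nr1d1 did pass under 7 of 16 alternative runs and Dbp under 1. Of 23 clock genes 4 were higher and 0 lower: the kinase gene Csnk1e (0.75 ± 0.15), Per3 (0.68 ± 0.19), Cry2 (0.59 ± 0.11) and Hlf (0.49 ± 0.14). Without AKR/J array 1, 2 or 3 or C57BL/6J array 1 or 3, 2 clock genes were called in each case. Csnk1e and Per3 were also higher in AKR/J brain, by 2.00 and 1.12.

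The strain differences were compared with those of livers that share no array, though 1 fit gave both, with a shared estimate of the spread. In sleep-deprived livers 2904 probe sets (6.45%) differed between AKR/J and C57BL/6J, and 1357 of them in the same direction as in control livers, 59.2% of the control calls and 46.7% of the sleep-deprived calls. Of the control calls, 96.1% had the same sign in sleep-deprived livers, against 64.0% of all probe sets. All 30 genes with the largest differences were called again in the same direction, where 8.79% of all genes were called, for example Ugt3a2 at -6.69, Cyp2c37 at -6.22, Abhd1 at 4.18 and Cyp2c39 at 3.40. Calls of opposite direction numbered 6: Creld2, Hspa5, 3 probe sets of Hsp90aa1 and 1 of Etfbkmt. Hspa5 was at 0.41 after sleep deprivation (adjusted p = 0.0125, limma) and at -0.34 in control livers (adjusted p = 0.0471, limma), and its interaction of 0.76 ± 0.14 did not pass (adjusted p = 0.1, limma).

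In control brain 901 probe sets (2.00%) differed, and 283 of them in the same direction as in liver, 12.3% of the liver calls and 31.4% of the brain calls. The sign agreed for 74.4% of liver calls, against 57% of all probe sets. The strain difference itself differed between liver and brain at 934 probe sets (2.07%). Of the 30 genes with the largest liver differences 9 were called in brain in the same direction, and 29 differed between tissues, where 1.98% of all genes were called in brain and 2.84% differed between tissues. The 30 genes were chosen by the liver difference that this contrast contains, so the count of 29 is a description and supports nothing. The exception was Rpgrip1, lower in AKR/J by -3.83 in liver and -4.01 in brain. Hddc3 (1.77), Abhd1 (1.60), H2-K1 (-2.59), Zfp874a (-1.80), Akr1e1 (-1.67) and H2-D1 (-1.30) were smaller in brain but called. Slc39a2 was called in opposite directions, 2.81 in liver and -0.71 in brain, as were Ackr1, Anxa5, Fcho1 and Pck2.

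Many genes were read by more than 1 probe set, and not all of them gave the same answer. Of 9010 such genes 1162 had at least 1 probe set called and 121 had all called. In 30 genes probe sets were called in both directions. Besides H2-D1 they include Arhgap26 (0.67 and -2.52), Dpys, the dihydropyrimidinase gene (0.44 and -1.86), and Qprt of NAD synthesis (0.75 and -1.60).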

How the data were processed

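The deposited log2 values are RMA expression values made by the authors, per the submitters' processing notes; the sources used here give neither its version nor a genome build. RMA subtracts background, equalises the distributions of arrays and summarises probes, and it compresses differences of dim probe sets. Liver and brain had different array medians and were treated as normalised apart. Each array held a pool of 3 mice, per the labels' protocols; arrays have no sequencing depth, and their number limits the precision.

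From the 45101 probe sets 64 controls were left out. Of the 45037 tested, 34945 had 1 gene symbol (34741 updated by gene identifier through RefSeq GRCm38.p6, names and promoter windows only), 932 several and 9160 none, giving 18193 genes. Limma 3.58.1 in R 4.3.3 was fitted to 6 group means over the 18 liver arrays (18 brain arrays, or all 36 arrays in 12 groups, for the tissue comparisons), with moderated variances, two-sided tests and Benjamini-Hochberg adjustment at 0.05. On simulated data for control liver (45037 probe sets, 200 changed) 44.8% of differences of 0.5, 95.5% of 1 and 100% of 2 were recovered, and 7 of 167 calls were false. The simulated noise was independent between arrays and probe sets, and fewer probe sets were changed than the 2293 called. These rates may thus not hold for the real arrays.

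The named genes were the 15 largest rises and 15 largest falls called without overlap between groups, up to 4 called members with the largest difference from each of 26 pathway and 12 marker lists, and 12 fixed genes (Nnt, Glo1, Alad, Hc, Soat1, H2-Ea, Per1, Per2, Dbp, Arntl, Nr1d1 and Cirbp); Soat1 was not analysed here. Further members named beside them, the neighbours, the interaction genes and the promoter search were chosen after values were seen. Members and lists were chosen with earlier results of these data known, and lists are described by counts without a set test. Alternatives changed the arrays, the variance model, the scaling, the filter on dim probe sets and a block on the replicate number.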

Additional observations from a re-analysis of the deposited data

Results flagged for a closer look

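The strain difference in liver differed between sleep-deprived and control animals at 10 probe sets, by the test of that difference. By gene, the sleep-deprived minus control value was 1.75 for Creld2, 1.41 for Hsp90aa1, 1.16 for Manf, 0.96 for Stip1 and -0.94 for Gm7969. Gm7969 did not pass in 2 of 17 alternatives, 1 of them without the AKR/J arrays of conflicting label.

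The strain difference differed between control liver and control brain at 934 probe sets. The genes below were chosen by their liver difference, which the liver minus brain value contains, so the values are a description. Among the genes higher in AKR/J liver, the liver minus brain value was 2.01 for Abhd1, 3.43 for Cyp2c39, 3.13 for Pik3ap1, 3.07 for Cplane1, 3.13 for Cyp46a1, 2.52 for Snrnp25, 1.17 for Hddc3, 2.87 for Fmn2, 2.14 for Ctse, 3.51 for Slc39a2, 2.19 for Prxl2b, 2.26 for Ifi202b, 2.15 for Abca3, 2.21 for Dnaic1 and 1.89 for Rhbdf1. Among the genes lower in AKR/J liver it was -6.96 for Ugt3a2, -6.80 for Cyp2c37, -4.60 for Cyp4a14, -1.88 for H2-K1, -4.25 for Vnn1, -2.79 for H2-D1, -4.03 for Nnmt, -3.97 for Gm7969, -3.26 for Mndal, -1.37 for Zfp874a, -2.82 for C730036E19Rik, -0.98 for Akr1e1, -2.51 for Ces1g and -2.19 for Slc1a2.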

How the results depend on the processing

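The number of probe sets called in control liver was 2293, and 1425 to 1841 when 1 of the 6 compared arrays was left out. It was 1425 without AKR/J array 2 (743 higher, 682 lower), 702 without both AKR/J arrays of conflicting label, and 400 under the rule of no overlap and a difference of at least 1. These alternatives hold fewer arrays or a stricter rule. Without the conflicting arrays, control brain had 259 calls in place of 901, and the liver minus brain difference 289 in place of 934. Leaving out single compared arrays gave 555 to 651 calls in control brain, with 555 without AKR/J brain array 3, and 723 to 821 for liver minus brain. It gave 1973 to 2521 in sleep-deprived liver, in place of 2904. For the difference between conditions it gave 7 to 20, with 20 without C57BL/6J sleep-deprived array 2. That last count was 6 with dim probe sets dropped. With the replicate block, control liver had 2284 calls; deviations of same-numbered AKR/J and C57BL/6J arrays correlated at 0.094, -0.054 and -0.023, so the numbers did not pair the arrays. Of 142 named genes called, 74 passed under every alternative run and 28 failed only without the conflicting arrays; 0 changed sign. Per1, which was not called (-0.04), was at 0.06 without AKR/J array 2, -0.11 without AKR/J array 3, 0.00 without C57BL/6J array 2 and 0.02 without the conflicting arrays. DBA/2J control array 1 had a beta-actin 3′ to 5′ difference of 2.16, against 0.96 to 1.45 on the other liver arrays. It was left out after seeing the data, which gave 2687 calls in control liver and 3270 in sleep-deprived liver. Signal near background limits dim probe sets, and no detection calls were used.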
